A study of Mus musculus with 4 samples.

Results

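The subject is 47 type I interferon antiviral effector genes of the mouse, read in RNA-seq libraries of peritoneal macrophages. The genes were taken by name: a row of the deposited count table belonged to the group where its gene name equalled 1 of the 47 listed symbols, and all 47 were found among the 54532 genes of the table. No measured value enters that rule, although the list was drawn up with earlier results of these data known. The 4 libraries came from wild type (labelled WT) macrophages, 1 library for each combination of medium and compound. The first was kept in normal medium (0% 4T1) with the solvent DMSO, and the second in normal medium with 10 µM CH223191. The others were kept in 30% 4T1-conditioned medium (4T1-CM), 1 with DMSO and 1 with 10 µM CH223191. 4T1 is a mouse mammary carcinoma line, so 4T1-CM carries what these tumour cells release, and CH223191 is an antagonist of the aryl hydrocarbon receptor (AHR), a ligand-activated transcription factor. The study's methods describe peritoneal macrophages as elicited with thioglycollate in BALB/c mice. They are therefore an inflammatory, recruited population, and the labels give neither the age of the mice, nor whether mice were pooled, nor the time in the media. The series asked what AHR activity does in macrophages exposed to a breast cancer secretome, and states that it had no replicates.

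Type I interferons are released by cells that sense viral or misplaced nucleic acid, and they act on neighbouring cells through the receptor IFNAR. The receptor's kinases JAK1 and TYK2 activate transcription factors, among them STAT2 and IRF9, that bind interferon-stimulated response elements in the promoters of interferon-stimulated genes. The products of these genes block viral entry, translation and genome copying, or sense viral RNA and DNA. Macrophages keep many of them at a tonic level without infection, and they are known for strong induction of the same genes when interferon is added.

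Every value below is given in the order normal medium with DMSO, normal medium with CH223191, 4T1-CM with DMSO, 4T1-CM with CH223191. Levels are counts scaled to library size (CPM) after adjustment by the trimmed mean of M values (TMM), and levels compared between genes are per kilobase of transcript as well (RPKM). The libraries held 15535405, 16129075, 17557127 and 16388246 reads assigned to genes, so 3 reads corresponded to 0.171 to 0.189 CPM. A gene was kept where it had at least 10 reads in at least 1 library, which held for 13715 genes and for 45 of the 47 effector genes. 42 of these had 10 reads in every library, and the other three (Ifit1, Ifit3b and Mx2) were kept through the libraries where they were high. The remaining pair, Oas1a and Oas1g, had 0 reads in all 4 libraries, which allows at most 0.189 CPM in any of them, counting error only. A log2 ratio compares a pair of libraries after a prior count of 0.5 was added, and the range in parentheses behind it is its exact Clopper-Pearson 95% interval. That interval covers counting error only. With 1 library per condition no spread between cultures was measured, so a ratio has no test and describes those libraries. The one test made, an additive fit over all 4 libraries, is given with the response to 4T1-CM.

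The labelled cell type was present in all 4 libraries. The macrophage markers Adgre1, Csf1r, Cd68, Lyz2, Fcgr1, Mertk and Itgam were all detected, with a summed level of 14030, 18260, 37500 and 40030 CPM. All 7 were higher in 4T1-CM with either compound, with a median log2 ratio of 1.03 with DMSO and 0.98 with CH223191. The T cell genes Cd3e, Cd3d and Cd3g and the neutrophil genes S100a9, Ly6g and Retnlg were at 0 in every library. So were the keratin gene Krt19 and the plasmacytoid dendritic cell genes Siglech and Klk1. Other genes listed for these cell types had reads. Tcf4, listed for plasmacytoid dendritic cells, had 526, 476, 745 and 707 reads. The neutrophil gene Cxcr2 had 12, 9, 2 and 0 reads, and the epithelial gene Cdh1 had 3, 7, 16 and 20. The dendritic cell gene Zbtb46 had 20, 14, 16 and 22 reads. Ccr9, also listed for plasmacytoid dendritic cells, had 4, 3, 7 and 9 reads. The fibroblast markers summed to 57.3, 27.0, 145 and 123 CPM, and the B cell gene Ighm had 317, 540, 128 and 67 reads. The mitochondrial share of the counts was 0.633%, 1.17%, 1.76% and 1.79%. In bulk RNA, fewer cells of a type and less RNA per cell cannot be told apart, and the part of these markers in the results below was not tested.

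The promoters are shown first because they carry the letters by which this group of genes is usually recognised. The interferon-stimulated response element was searched as GAAA, any 2 bases and GAAA again, on both strands, within 250 bases before and 50 bases after each annotated start. The sequences are those of RefSeq for GRCm38.p6, which represents the C57BL/6J strain and not the BALB/c macrophages sequenced, and 35 of the 47 genes had an entry. Capitals mark the bases of a match, which reads TTTC where it lies on the opposite strand, and matches that overlap were each counted. The first 3 sequences are the 250 bases upstream of the start, and belong to Isg15, whose product is conjugated to proteins like ubiquitin (chr4:156200819-156201068, minus strand), to Ifit1, which binds viral RNA that lacks host cap methylation (chr19:34640639-34640888, plus strand), and to Rsad2, which encodes the antiviral enzyme viperin (chr12:26456453-26456702, minus strand).
Isg15: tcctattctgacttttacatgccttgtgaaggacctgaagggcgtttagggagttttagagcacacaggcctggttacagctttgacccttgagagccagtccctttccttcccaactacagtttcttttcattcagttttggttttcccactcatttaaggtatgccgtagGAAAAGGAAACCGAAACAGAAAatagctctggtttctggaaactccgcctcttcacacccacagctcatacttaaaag
Ifit1: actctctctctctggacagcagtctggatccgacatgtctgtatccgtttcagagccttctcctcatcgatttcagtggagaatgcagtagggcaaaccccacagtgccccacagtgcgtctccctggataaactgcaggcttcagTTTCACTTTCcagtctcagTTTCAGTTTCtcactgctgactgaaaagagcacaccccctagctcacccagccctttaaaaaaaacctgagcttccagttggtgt
Rsad2: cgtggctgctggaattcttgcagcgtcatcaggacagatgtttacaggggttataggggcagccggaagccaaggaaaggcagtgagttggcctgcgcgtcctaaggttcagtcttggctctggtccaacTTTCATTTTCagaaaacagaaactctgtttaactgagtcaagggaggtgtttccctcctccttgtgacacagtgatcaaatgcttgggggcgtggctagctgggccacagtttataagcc
The Isg15 promoter held 3 overlapping matches and the Ifit1 promoter 2 separate ones, whereas the Rsad2 promoter held a single match. The next 6 stretches are 60-base windows around the first match of other members, shown so that near copies can be compared with unrelated genes. They lie at chr19:34583353-34583412 (Ifit3, plus strand), chr8:71537563-71537622 (Bst2, minus strand), chr5:120777695-120777754 (Oas3, minus strand), chr11:83020819-83020878 (Slfn8, minus strand), chr5:120907506-120907565 (Oas1a, minus strand) and chr5:120887592-120887651 (Oas1g, minus strand).
Ifit3: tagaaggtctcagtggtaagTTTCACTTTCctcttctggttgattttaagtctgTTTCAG
Bst2: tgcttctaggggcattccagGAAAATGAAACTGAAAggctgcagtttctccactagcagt
Oas3: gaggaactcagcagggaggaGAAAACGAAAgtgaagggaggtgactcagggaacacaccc
Slfn8: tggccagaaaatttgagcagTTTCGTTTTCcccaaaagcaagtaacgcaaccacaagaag
Oas1a: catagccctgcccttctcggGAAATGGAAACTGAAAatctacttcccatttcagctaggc
Oas1g: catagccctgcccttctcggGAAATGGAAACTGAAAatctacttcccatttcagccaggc
The window of Ifit3b (chr19:34607749-34607808, plus strand) was identical to that of Ifit3. Oas1a and Oas1g carried the element although neither gene had a read.

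In all, 16 of the 35 promoters (45.7%) held the response element, against 3.99% of the 27025 genes in the promoter table and 3.84% of the 9837 kept genes that had a promoter. Beside those printed, they were the promoters of Ifih1, Ddx58, Eif2ak2, Trim30a, Ifitm3 and Slfn5. The first base of a match lay at positions -188 to 33 relative to the start. The gamma-activated site motif, searched as TTCNNNGAA, was found in 8 of the 35 (22.9%) against 9.55% of all genes and 8.18% of the kept ones. The core of the AHR response element, GCGTG, was found in 12 (34.3%) against 35.2% of all genes and 55.6% of the kept ones. A match is a description of letters and not a binding site. The 12 genes without an entry in the promoter table were Oas2, Mx1, Mx2, Usp18, Dhx58, Zbp1, Ifi204, Parp9, Parp14, Ifi27l2a, Rtp4 and Tor3a.

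The effector genes were higher as a group in 4T1-CM than in normal medium, and with CH223191 their levels lay closer together. Summed over all members, the level was 1723, 1920, 3530 and 3064 CPM. Both 4T1-CM libraries lay above both normal medium libraries for 41 of the 45 kept members (91.1%), against 34.6% of all 13715 genes. The library with 4T1-CM and DMSO was the highest of the 4 for 39 members (86.7%), against 23.7% of all genes. For 29 members (64.4%, against 7.88% of all genes) the libraries followed 1 order, with 4T1-CM and DMSO at the top, 4T1-CM with CH223191 next, then normal medium with CH223191, and normal medium with DMSO at the bottom.

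**Figure D1:**
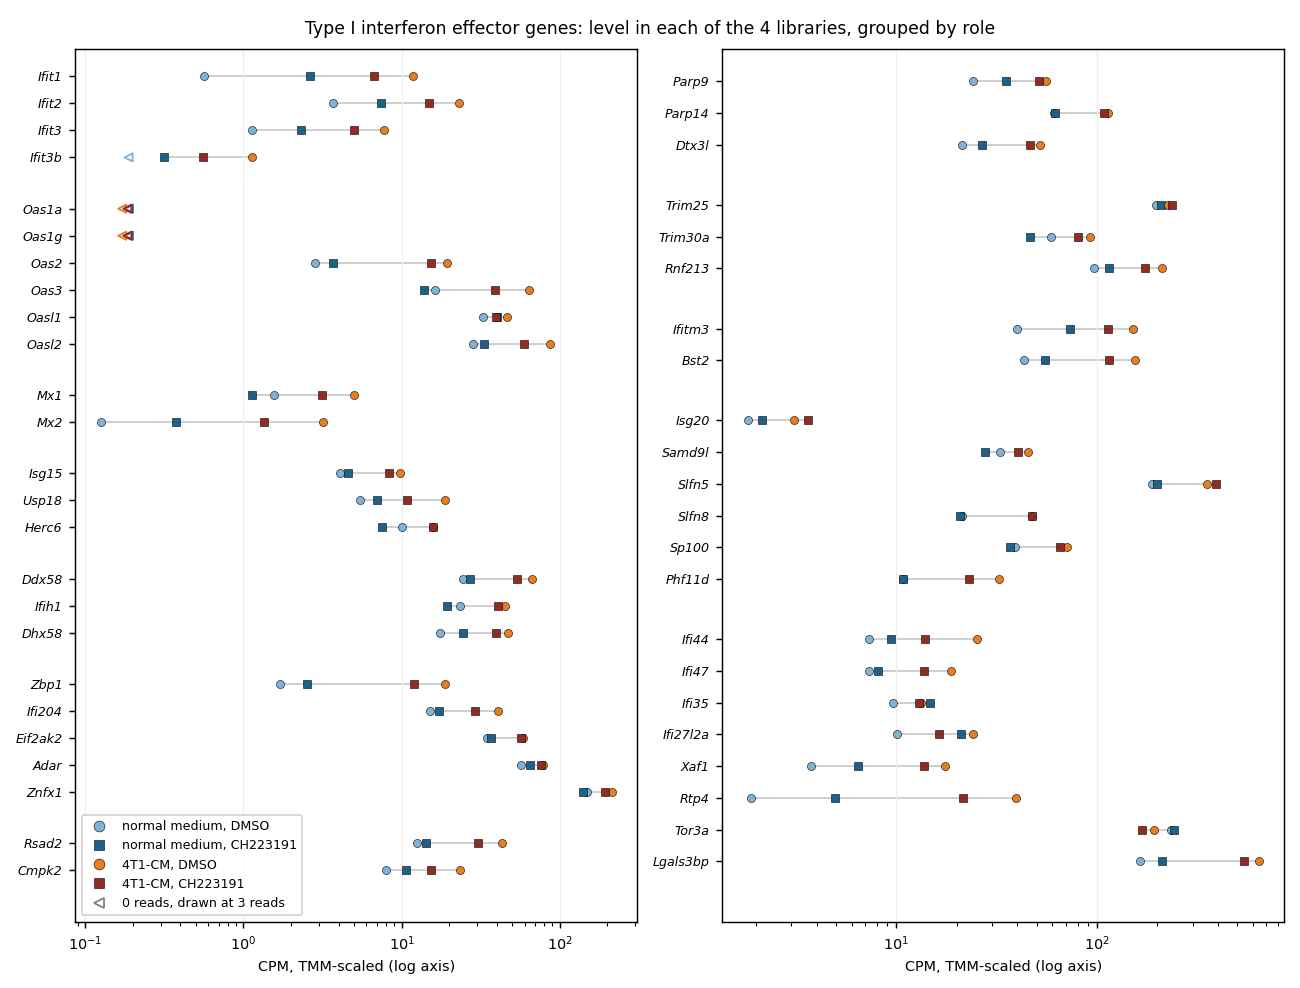
Level of each of the 47 effector genes in the 4 libraries, as TMM-scaled CPM on a log axis, with genes grouped by role from the IFIT proteins at the top left to other interferon-induced genes at the bottom right. Circles are libraries with DMSO and squares libraries with CH223191, blue in normal medium and orange or red in 4T1-CM, and open triangles mark 0 reads, drawn at the level of 3 reads. In most rows the orange circle is farthest to the right and the light blue circle farthest to the left; Tor3a is the row where the 4T1-CM libraries lie to the left.

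The first question was how the effector genes answered 4T1-CM. With DMSO, 30 of the 45 kept members (66.7%) were at least 2-fold higher in 4T1-CM, against 12.2% of all genes, and 0 were at least 2-fold lower, against 6.11% of all genes. The median log2 ratio of the members was 1.43, a 2.69-fold difference, and that of all genes 0.01. With CH223191, 17 members (37.8%) were at least 2-fold higher, against 12% of all genes, and 0 were at least 2-fold lower, against 7.86%. The median was then 0.81, or 1.76-fold, against 0.02 for all genes. 15 members were past 2-fold in both comparisons, which share no library (33.3%, against 8.19% of all genes). These were Ifit1, Ifit2, Ifit3, Oas2, Oas3, Mx1, Mx2, Zbp1, Rsad2, Bst2, Slfn8, Phf11d, Xaf1, Rtp4 and Lgals3bp. Ifit1 and Mx2 are here again through a filter passed where they were high. Across the 45 members the log2 ratios of the paired comparisons had a Pearson correlation of 0.65 (Spearman 0.67), against 0.74 (0.69) over all genes, given as a description since genes of a library are not independent. At 1.5-fold, 34 members (75.6%) were higher in 4T1-CM with CH223191, against 20.9% of all genes. In an edgeR quasi-likelihood fit with medium and inhibitor as additive terms and 1 residual degree of freedom, 37 members (82.2%) were higher in 4T1-CM at an adjusted p under 0.05, against 16.4% of all genes, and 1, Tor3a, was lower, against 16.2%. For the inhibitor term the fit called 0 members, against 0.0729% of all genes higher and 0.00729% lower, and at an unadjusted p under 0.05 it held 1 member, Oas3, against 6.41%. That fit takes the inhibitor to act alike in both media. Its 1 residual degree of freedom is the departure from that assumption, so its p-values do not measure spread between cultures. Most members had inhibitor ratios of opposite sign in the media, as given below. The 0 calls for the inhibitor therefore do not show that it had no effect in either medium. The macrophage markers moved the same way as the effectors with 4T1-CM, as given above.

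**Figure D2:**
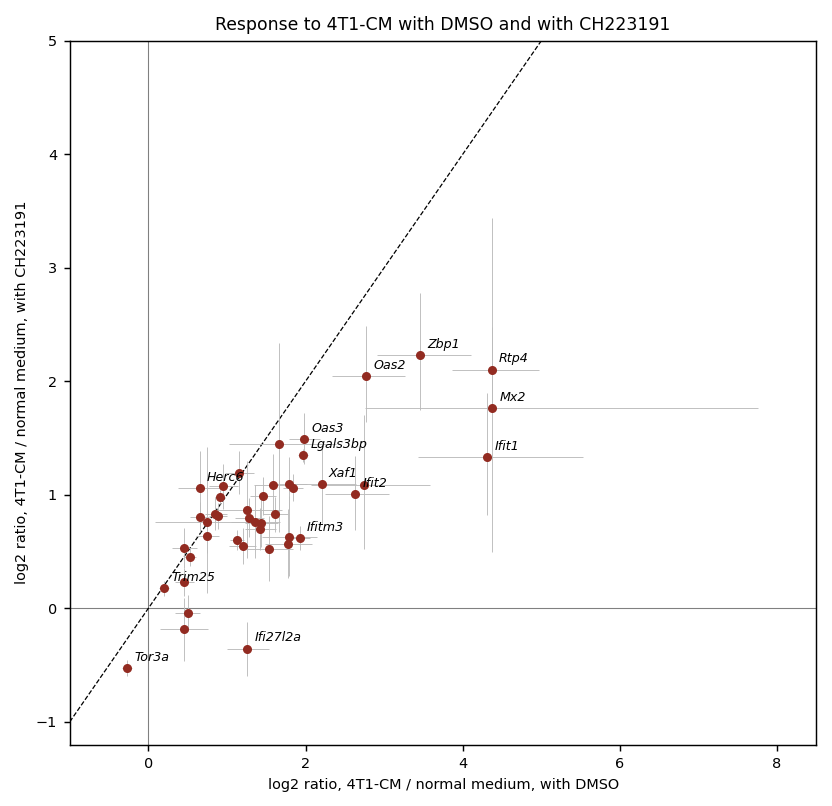
Log2 ratio of 4T1-CM over normal medium for each kept effector gene, with DMSO on the x axis and with CH223191 on the y axis. Points are genes, bars are 95% counting intervals and the dashed line marks equal ratios. Most points lie below the dashed line, from Ifit1 (4.31 against 1.33) and Rtp4 (4.37 against 2.10) to Ifi27l2a (1.26 against -0.35). Ifit3b, with 0 reads in 1 library, is not drawn.

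The IFIT proteins bind foreign RNA ends and hold back their translation, and their 4 genes lie side by side on chromosome 19, between positions 34550694 and 34650009 of GRCm38. All 4 were past 2-fold higher in 4T1-CM with DMSO, on few reads in normal medium. Ifit1 was at 0.565, 2.64, 11.8 and 6.71 CPM, from 9, 42, 206 and 109 reads. Its log2 ratio of 4T1-CM over normal medium was 4.31 (3.43 to 5.53) with DMSO and 1.33 (0.82 to 1.90) with CH223191, and these intervals did not overlap. Ifit2, which can also promote cell death, was at 3.70, 7.42, 23.1 and 14.96 CPM, with log2 ratios of 2.63 (2.25 to 3.06) and 1.01 (0.69 to 1.34). Ifit3, a partner of IFIT1 in RNA binding, had 18, 37, 136 and 81 reads and log2 ratios of 2.75 (2.07 to 3.58) and 1.09 (0.52 to 1.70). In each of these genes the lowest library was normal medium with DMSO. Ifit3b had 0, 5, 20 and 9 reads. Against the floor of 3 reads in normal medium with DMSO, it was at least 6.07-fold higher in 4T1-CM with DMSO. Ifit3 and Ifit3b share sequence, since 51.2% and 45.0% of their 50-base words also occur in transcripts of another gene, so the split of reads between them is uncertain. The group's median log2 ratio was 3.53 with DMSO, or 2.69 with Ifit3b at its bound, and 1.05 with CH223191.

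The OAS proteins make short oligoadenylates in the presence of double-stranded RNA and thereby activate RNase L. 4 of the 6 genes were detected. Oas2 was at 2.82, 3.71, 19.5 and 15.4 CPM, with log2 ratios of 2.77 (2.33 to 3.27) with DMSO and 2.04 (1.64 to 2.49) with CH223191. Oas3, the family member that responds best to long double-stranded RNA, was at 16.2, 14.0, 64.1 and 39.2 CPM, with log2 ratios of 1.98 (1.78 to 2.18) and 1.49 (1.27 to 1.72). For both genes the pair of 4T1-CM libraries lay well above the pair in normal medium. Oasl2 was at 28.3, 33.5, 86.8 and 59.4 CPM (log2 ratios 1.62 and 0.83). Oasl1, known to restrain the translation of Irf7 mRNA, was at 32.8, 40.4, 46.4 and 39.3 CPM. Its ratio was 0.50 (0.34 to 0.66) with DMSO and -0.04 (-0.20 to 0.12) with CH223191, and the interval of the latter spans 0. Oas1a and Oas1g are near copies with 57.6% and 45.7% of their words in another gene, and how the counting treated reads that match several genes is not stated.

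The MX proteins are dynamin-like GTPases that trap viral nucleoproteins. Mx1 had 25, 18, 88 and 51 reads, with log2 ratios of 4T1-CM over normal medium of 1.66 (1.03 to 2.38) with DMSO and 1.45 (0.67 to 2.33) with CH223191. Mx2 had 2, 6, 56 and 22 reads, with ratios of 4.38 (2.75 to 7.75) and 1.76 (0.50 to 3.44). Both genes were low in normal medium and were among the least abundant members per length in 4T1-CM with DMSO, at 1.33 and 0.885 RPKM. Many laboratory mouse strains carry defective Mx genes, and the annotation lists Mx2 as a polymorphic pseudogene.

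Of the ISG15 system, Isg15 itself, whose promoter is printed above, was at 4.08, 4.59, 9.77 and 8.37 CPM, with log2 ratios of 1.25 (0.84 to 1.70) with DMSO and 0.86 (0.45 to 1.30) with CH223191. Usp18, the protease that removes ISG15 and also blocks signalling at the interferon receptor, was at 5.46, 6.98, 18.9 and 10.8 CPM, with ratios of 1.79 (1.45 to 2.15) and 0.63 (0.28 to 0.99). The intervals of Usp18 did not overlap between compounds and those of Isg15 did. Herc6, the mouse ligase that attaches ISG15, was at 10.0, 7.55, 15.8 and 15.8 CPM. It was 1 of the few members with a larger ratio under CH223191, at 1.06 (0.74 to 1.39) against 0.66 (0.37 to 0.95) with DMSO, and the intervals overlapped. 12.5% of the words of Herc6 occur in another gene.

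The RIG-I-like receptors detect viral RNA in the cytosol. Ddx58, encoding RIG-I, was at 24.5, 27.1, 67.2 and 53.9 CPM, with log2 ratios of 1.46 (1.29 to 1.63) and 0.99 (0.82 to 1.16). Ifih1, encoding MDA5, which prefers long RNA duplexes, was at 23.4, 19.4, 45.4 and 40.8 CPM, with ratios of 0.95 (0.78 to 1.14) and 1.07 (0.88 to 1.27). Dhx58, encoding the regulator LGP2, was at 17.6, 24.3, 47.2 and 39.6 CPM, with ratios of 1.43 (1.23 to 1.63) and 0.70 (0.52 to 0.89). All of these were higher in both 4T1-CM libraries, and Ifih1 was the one whose ratio was not smaller with CH223191.

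Other sensors and RNA-binding enzymes varied widely. Zbp1, a sensor of Z-form nucleic acid that can trigger necroptosis, was at 1.69, 2.52, 18.9 and 11.9 CPM, with log2 ratios of 3.45 (2.91 to 4.10) and 2.23 (1.75 to 2.78), among the steepest of all members. Ifi204, a cytosolic DNA sensor of the p200 family, was at 15.1, 17.4, 41.0 and 29.2 CPM (log2 ratios 1.44 and 0.75), and part of its sequence occurs in other genes of the family. The rest of this group responded less. Eif2ak2, the kinase PKR that halts translation, was at 34.8, 36.8, 58.5 and 57.2 CPM, with ratios of 0.75 (0.60 to 0.90) and 0.64 (0.49 to 0.79). Adar, which edits adenosine to inosine in RNA duplexes, was at 56.8, 64.9, 78.0 and 76.2 CPM, with ratios of 0.46 (0.33 to 0.58) and 0.23 (0.11 to 0.35). Znfx1, a helicase-like RNA sensor, was at 148, 141, 213 and 193 CPM (log2 ratios 0.53 and 0.45).

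Rsad2 and Cmpk2 lie next to each other on chromosome 12, on opposite strands, and act in 1 pathway: CMPK2 supplies nucleotide that viperin turns into a chain terminator. Rsad2 was at 12.5, 14.3, 43.1 and 30.6 CPM, with log2 ratios of 1.78 (1.56 to 2.02) and 1.10 (0.87 to 1.33). Cmpk2 was at 8.03, 10.7, 23.4 and 15.4 CPM, with ratios of 1.54 (1.25 to 1.84) and 0.52 (0.24 to 0.81). The neighbours thus had like ratios with DMSO and separate ones with CH223191. Parp9 and Dtx3l are another neighbouring pair, on chromosome 16, whose proteins form a complex that modifies chromatin. Their annotated gene spans overlap by 682 bases on opposite strands, and whether the counting used strand is not stated. Parp9 was at 24.2, 35.3, 55.6 and 51.6 CPM (log2 ratios 1.198 and 0.55). Dtx3l was at 21.3, 26.6, 52.0 and 46.3 CPM, with ratios of 1.29 (1.11 to 1.47) and 0.80 (0.63 to 0.97). Parp14, a mono-ADP-ribosyltransferase, was at 61.4, 61.9, 113 and 109 CPM, with ratios of 0.89 (0.77 to 0.997) and 0.81 (0.70 to 0.93), both under 2-fold.

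Among the ubiquitin ligases, Rnf213, a very large protein that coats intracellular pathogens, was at 96.3, 115, 211 and 174 CPM, with log2 ratios of 1.13 (1.04 to 1.22) and 0.60 (0.52 to 0.69). Trim25, which ubiquitinates in the RIG-I pathway, was abundant and nearly level, at 198, 208, 227 and 235 CPM with ratios of 0.20 (0.13 to 0.27) and 0.17 (0.11 to 0.24). Trim30a was at 58.8, 46.2, 92.3 and 80.6 CPM (log2 ratios 0.65 and 0.80). The membrane restriction factors were both abundant and responsive. Ifitm3, which stops enveloped viruses in endosomes, was at 39.8, 73.4, 151 and 113 CPM, with ratios of 1.92 (1.80 to 2.05) and 0.62 (0.52 to 0.73). Bst2, or tetherin, which holds budding virions at the cell surface, was at 43.4, 54.8, 155 and 115 CPM, with ratios of 1.84 (1.72 to 1.962) and 1.06 (0.95 to 1.18). For both genes the intervals with DMSO and with CH223191 were separate.

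The 6 nucleic acid restriction factors had a median log2 ratio of 4T1-CM over normal medium of 0.88 with DMSO and 0.91 with CH223191. Phf11d had the largest ratio of these with DMSO, at 10.7, 10.8, 32.4 and 23.0 CPM with ratios of 1.59 (1.34 to 1.85) and 1.09 (0.83 to 1.36). Slfn8, a Schlafen family gene on chromosome 11, was at 21.2, 20.8, 47.2 and 47.6 CPM, with ratios of 1.15 (0.97 to 1.34) and 1.19 (1.005 to 1.38). Its neighbour Slfn5 was at 187, 198, 352 and 392 CPM, with ratios of 0.91 (0.85 to 0.98) and 0.98 (0.92 to 1.05). The Schlafen pair thus had no smaller response with CH223191. Samd9l, a translation-inhibiting restriction factor, was at 32.9, 27.8, 45.2 and 40.2 CPM, with ratios of 0.46 (0.30 to 0.62) and 0.53 (0.36 to 0.71). Isg20, an RNA exonuclease, had 29, 34, 54 and 59 reads, with ratios of 0.75 (0.09 to 1.47) and 0.76 (0.13 to 1.42), wide intervals at this depth. Sp100, a nuclear body protein, was at 39.1, 36.7, 70.8 and 65.4 CPM (log2 ratios 0.85 and 0.83).

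Among the other interferon-induced genes, Rtp4, a chaperone of receptors that also restrains interferon responses, had the largest ratio, at 1.88, 4.97, 39.4 and 21.4 CPM. It lies on chromosome 16, from position 23520291 to 23614222. Its log2 ratio was 4.37 (3.86 to 4.97) with DMSO and 2.10 (1.75 to 2.48) with CH223191. Rtp4 overlaps Masp1 by 525 bases on the opposite strand, and Masp1 had 7, 14, 59 and 26 reads. It also overlaps Gm45338 by 39791 bases on the same strand, and Gm45338 had 1, 3, 0 and 0 reads. Lgals3bp, a secreted glycoprotein, was abundant in every library, at 164, 212, 641 and 539 CPM (log2 ratios 1.97 and 1.35). Xaf1, linked to apoptosis, was at 3.76, 6.41, 17.5 and 13.7 CPM (log2 ratios 2.21 and 1.09). These genes were past 2-fold with either compound. Ifi44 was at 7.34, 9.37, 25.1 and 13.9 CPM, with ratios of 1.77 (1.48 to 2.08) and 0.57 (0.27 to 0.88). Ifi47, an immunity-related GTPase, was at 7.28, 8.11, 18.6 and 13.8 CPM (log2 ratios 1.35 and 0.76). Its annotated span overlaps Olfr56 by 20388 bases on the same strand, and Olfr56 had 0, 8, 31 and 23 reads. The remaining genes departed from the common pattern. Ifi27l2a was at 10.1, 20.9, 24.2 and 16.4 CPM, and its ratio was 1.26 (0.997 to 1.53) with DMSO and -0.35 (-0.59 to -0.12) with CH223191. Ifi35 was at 9.66, 14.7, 13.2 and 12.9 CPM, with ratios of 0.45 (0.15 to 0.75) and -0.19 (-0.46 to 0.09). Tor3a, an interferon-responsive torsin ATPase, was lower in 4T1-CM with either compound, at 234, 242, 193 and 169 CPM with ratios of -0.27 (-0.34 to -0.21) and -0.52 (-0.59 to -0.45).

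The next question was what CH223191 did in each medium. In normal medium most members were higher with the inhibitor, and in 4T1-CM most were lower. The log2 ratio of CH223191 over DMSO was above 0 in normal medium for 36 of the 45 members (80.0%, against 51.2% of all genes) and below 0 in 4T1-CM for 41 (91.1%, against 49.2%). Both held for 33 members (73.3%, against 23.2% of all genes). The differences were small: the median log2 ratio was 0.24, or 1.18-fold, for normal medium. For 4T1-CM the median was -0.32, a ratio of 0.801, and all genes had a median of 0.00 in either medium.

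**Figure D3:**
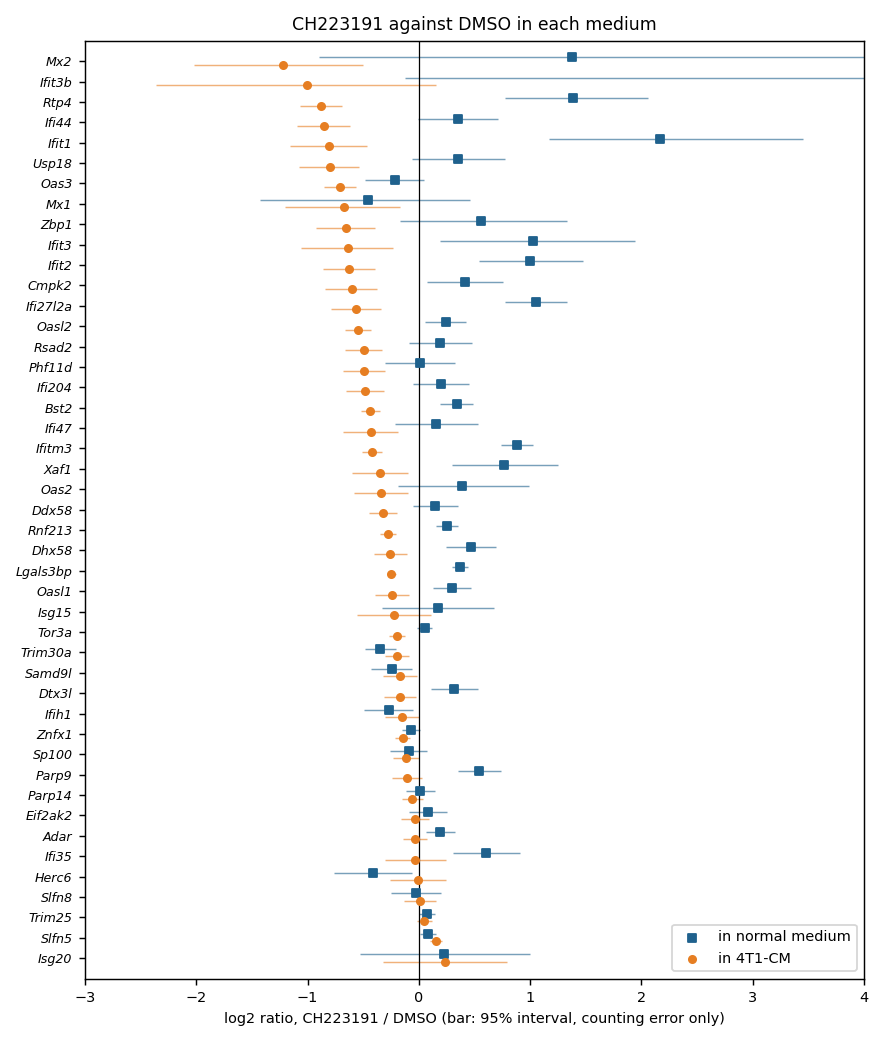
Log2 ratio of CH223191 over DMSO for the 45 kept effector genes, in normal medium (blue squares) and in 4T1-CM (orange circles), sorted by the value in 4T1-CM, with bars for the 95% counting interval. Most orange circles lie left of 0 and most blue squares right of it, with Mx2 (-1.22 in 4T1-CM) at the top and Isg20 (0.23) at the bottom. For Ifit3b, with 0 reads in normal medium with DMSO, the blue bar is drawn without a point, and bars that leave the axis are clipped.

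In 4T1-CM, 2 members were at least 2-fold lower with CH223191, Ifit3b and Mx2, which is 4.44% against 2.66% of all genes, and 0 were at least 2-fold higher, against 2.75%. Both rest on few reads, with 20 and 9 for Ifit3b and 56 and 22 for Mx2. At 1.5-fold, 12 members were lower (26.7%, against 6.15% of all genes) and 0 were higher (against 6.19%). They were Ifit1, Ifit2, Ifit3, Ifit3b, Oas3, Mx1, Mx2, Usp18, Zbp1, Cmpk2, Ifi44 and Rtp4. For 32 members (71.1%) the counting interval lay below 0, against 13.5% of all genes, and for 1 member, Slfn5, it lay above 0, against 13.3%. The lowest ratios among members with more than 3 reads in each library were those of Rtp4, at 39.4 and 21.4 CPM with DMSO and CH223191 and a log2 ratio of -0.88 (-1.07 to -0.69), and of Ifi44, at 25.1 and 13.9 CPM with -0.85 (-1.09 to -0.62). Ifit1 went from 11.8 to 6.71 CPM, with a log2 ratio of -0.81 (-1.16 to -0.47). Usp18 went from 18.9 to 10.8 CPM, with -0.80 (-1.08 to -0.54). The more abundant members differed by less. Ifitm3 went from 151 to 113 CPM, with -0.42 (-0.51 to -0.33), and Bst2 from 155 to 115 CPM, with -0.44 (-0.52 to -0.35). Lgals3bp went from 641 to 539 CPM, with -0.25 (-0.29 to -0.21). The 4 members with a ratio above 0 were Isg20 at 0.23 (-0.32 to 0.80), Slfn5 at 0.15 (0.10 to 0.20), Trim25 at 0.05 (-0.01 to 0.12) and Slfn8 at 0.01 (-0.13 to 0.15), so that Slfn5 was the one with an interval above 0. The fibroblast markers were lower as well in this pair of libraries (4 of 4 kept, median log2 ratio -0.27), whereas the macrophage markers had a median of -0.02. Ighm was lower too, at -0.82 (-1.27 to -0.39).

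In normal medium, 6 members were at least 2-fold higher with CH223191 (13.3%, against 4.84% of all genes): Ifit1, Ifit3, Ifit3b, Mx2, Ifi27l2a and Rtp4. Of these, Ifit1, Ifit3b and Mx2 had under 10 reads in at least 1 library and were kept through those where they were high. Ifit3, Ifi27l2a and Rtp4 had 10 reads in every library. The count at least 2-fold lower was 0, against 3.31% of all genes. At 1.5-fold, 10 members were higher (22.2%, against 10.6%) and 0 were lower (against 7.49%), the added genes being Ifit2, Ifitm3, Ifi35 and Xaf1. Ifit1 went from 9 to 42 reads, with a log2 ratio of 2.17 (1.17 to 3.45). Rtp4 went from 30 to 79 reads, with 1.39 (0.78 to 2.06). Ifitm3 went from 39.8 to 73.4 CPM, with 0.88 (0.74 to 1.02), and Ifi27l2a from 10.1 to 20.9 CPM, with 1.05 (0.78 to 1.33). The 9 members with a ratio below 0 included Mx1 at -0.46 (-1.43 to 0.46), Herc6 at -0.41 (-0.77 to -0.06), Trim30a at -0.35 (-0.49 to -0.21) and Ifih1 at -0.27 (-0.49 to -0.05). The macrophage marker Cd68 was also higher in this pair, at 1146 and 2055 CPM, and the median of the 7 macrophage markers was 0.33. The fibroblast markers had a median of -1.21, and Ighm a log2 ratio of 0.77 (0.57 to 0.98).

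Set side by side, 15 members (33.3%, against 2.83% of all genes) had a counting interval wholly above 0 in normal medium and wholly below 0 in 4T1-CM. These were Ifit1, Ifit2, Ifit3, Oasl1, Oasl2, Dhx58, Cmpk2, Dtx3l, Rnf213, Ifitm3, Bst2, Ifi27l2a, Xaf1, Rtp4 and Lgals3bp. The comparisons in normal medium and in 4T1-CM share no library, and across the 45 members their log2 ratios had a Pearson correlation of -0.59 (Spearman -0.52), against 0.08 (0.10) over all genes, again as a description. Members low in reads, such as Mx2 and Ifit3b, lie toward the ends of both axes, and Ifit3b enters with its fitted value. The response to 4T1-CM with CH223191 minus the response with DMSO is the same quantity as the difference between these inhibitor ratios. It had a median of -0.59 over the members, against -0.01 over all genes, and was below 0 for 38 members (84.4%, against 50.6%). Its counting interval lay below 0 for 31 members (68.9%, against 17.4% of all genes) and above 0 for 0 members (against 17.3%). All 7 macrophage markers were below 0 in this difference, from -0.77 for Cd68 to -0.02 for Mertk, and Ighm was at -1.59 (-2.06 to -1.12); their part was not tested. Ifit1 had the widest gap of the members with more than 3 reads in each library, at -2.98 (-4.04 to -1.91), followed by Rtp4 at -2.27 (-2.90 to -1.64) and Ifit3 at -1.66 (-2.56 to -0.77). The 7 members at or above 0 were Herc6 at 0.40 (-0.02 to 0.82), Trim30a, Ifih1, Samd9l, Slfn5, Slfn8 and Isg20.

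**Figure D4:**
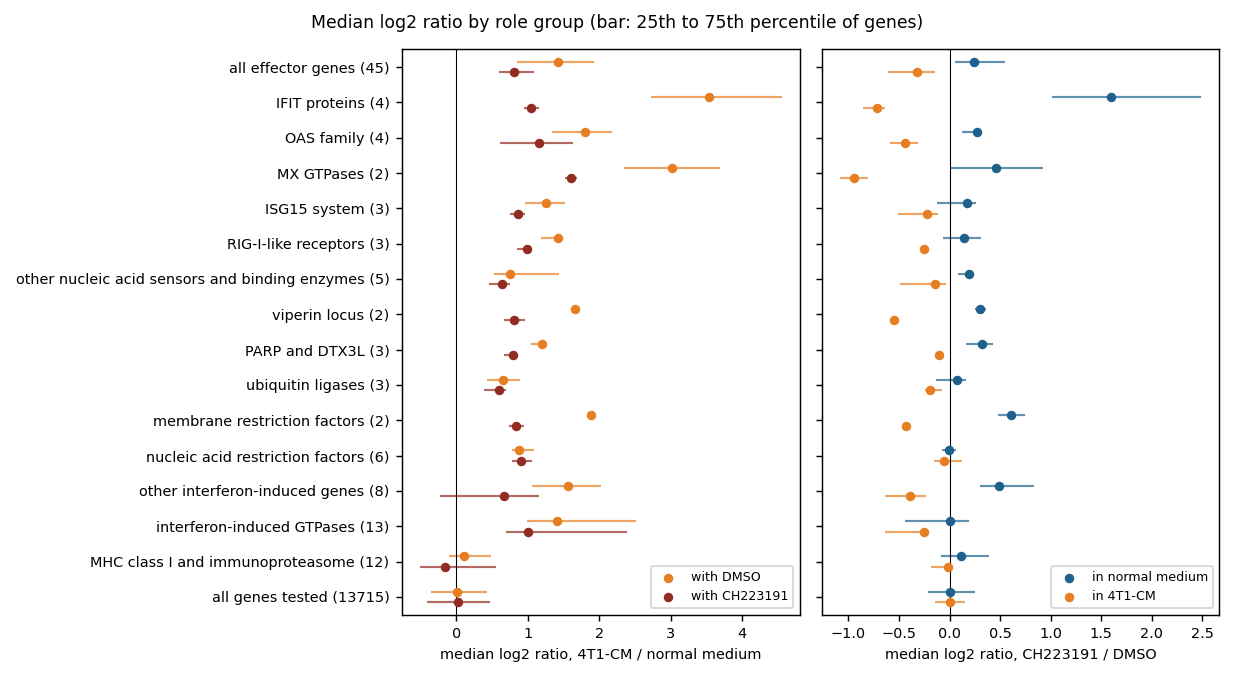
Median log2 ratio of each role group, of the interferon-induced GTPases, of the MHC class I genes and of all genes, for 4T1-CM over normal medium (left) and CH223191 over DMSO (right), with bars from the 25th to the 75th percentile of genes and the number of kept genes in parentheses. On the left the IFIT and MX groups lie farthest from 0 with DMSO, and on the right most groups lie above 0 in normal medium and below 0 in 4T1-CM; the 6 nucleic acid restriction factors lie near 0 in both. The IFIT points that rest on normal medium with DMSO include the fitted value of Ifit3b, which had 0 reads there.

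By role, the inhibitor ratio in 4T1-CM had its lowest medians in the MX GTPases (-0.95), the IFIT proteins (-0.72) and the viperin pair (-0.55), followed by the OAS family (-0.44), the membrane restriction factors (-0.43) and the other interferon-induced genes (-0.39). It was nearest 0 in the nucleic acid restriction factors (-0.05) and the PARP and DTX3L genes (-0.11). In normal medium the same medians were 0.46 for the MX GTPases, 1.59 for the IFIT proteins, or 1.01 with Ifit3b at its bound, and 0.30 for the viperin pair. Groups of 2 to 8 genes give coarse medians, and MX rests on 1 gene that was lower and 1 that was higher in normal medium.

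Levels per length set the members in a different order from their responses. In 4T1-CM with DMSO the most abundant were Lgals3bp (225 RPKM), Ifitm3 (223 RPKM) and Bst2 (172 RPKM). Lgals3bp and Ifitm3 were nearly equal, and with 1 library their order is not established. The next, Slfn5, stood at 55.7 RPKM. In normal medium with DMSO the top 3 were Tor3a (60.1 RPKM), Ifitm3 (58.7 RPKM) and Lgals3bp (57.5 RPKM), which differ little. Rtp4 moved from rank 37 of the members in normal medium with DMSO, at 0.883 RPKM, to rank 10 in 4T1-CM with DMSO, at 18.5 RPKM. Ifit1, whose ratio was about as large, stood at 0.213 RPKM and 4.43 RPKM in these libraries, at ranks 43 and 37. The members of the largest ratios were thus not those of the highest levels.

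The interferon pathway upstream of these genes was read from lists of its ligands, receptors, kinases, transcription factors and regulators. No interferon transcript was detectable at this depth in the library where the effectors were highest. Of 19 interferon ligand genes, among them Ifnb1, 11 Ifna genes and Ifng, 18 had 0 reads in all 4 libraries. The exception, Ifnk, had 2 reads in 4T1-CM with CH223191. A count of 0 allows up to 0.171 CPM in 4T1-CM with DMSO. That bound holds only if reads matching several genes were counted, which is not stated. Shared sequence among the ligand genes was not measured. Of 6 receptor genes, 5 were kept, and 1 of them, Ifnar2, was past 2-fold in each 4T1-CM comparison. The interferon lambda receptor gene Ifnlr1 had 1, 1, 4 and 1 reads. Ifnar1 was at 139, 145, 272 and 282 CPM, with log2 ratios of 4T1-CM over normal medium of 0.97 (0.90 to 1.04) and 0.96 (0.89 to 1.03). Ifnar2 was at 86.0, 104, 193 and 212 CPM, with 1.17 (1.07 to 1.26) and 1.02 (0.94 to 1.11). Both chains of IFNAR were thus about 2-fold higher in 4T1-CM, under either compound, and neither was lower with CH223191 in 4T1-CM.

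Of the signalling genes, Stat2 was at 46.8, 53.2, 79.3 and 68.3 CPM, with log2 ratios of 0.76 (0.63 to 0.89) with DMSO and 0.36 (0.23 to 0.49) with CH223191. Irf9 was at 26.1, 34.5, 46.2 and 44.0 CPM, with 0.82 (0.65 to 0.997) and 0.35 (0.19 to 0.51). Both were highest in 4T1-CM with DMSO, by less than 2-fold over normal medium. The CH223191 over DMSO ratio in 4T1-CM was -0.22 (-0.33 to -0.10) for Stat2 and -0.07 (-0.22 to 0.08) for Irf9. Of the kinases, Jak2, which serves the interferon gamma and cytokine receptors, was higher in 4T1-CM, past 2-fold with CH223191, at 40.02, 32.2, 79.1 and 76.1 CPM. Jak1 was at 337, 282, 326 and 340.1 CPM. Its log2 ratio of 4T1-CM over normal medium was -0.045 (-0.099 to 0.009) with DMSO and 0.268 (0.211 to 0.325) with CH223191. Tyk2 was at 70.1, 91.2, 60.5 and 63.9 CPM.

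**Figure D5:**
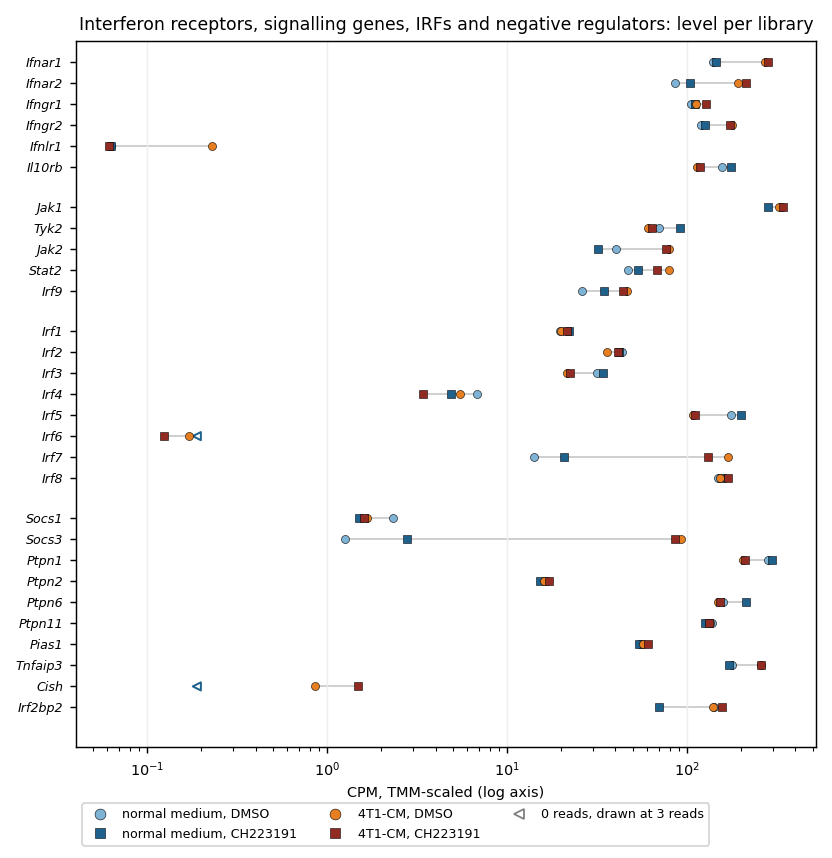
Level of interferon receptor, signalling, interferon regulatory factor and negative regulator genes in the 4 libraries, as TMM-scaled CPM on a log axis, with symbols as in the plot of effector genes. Most rows are short, with libraries within about 2-fold, while Irf7 (14.1 to 169 CPM) and Socs3 (1.25 to 92.7 CPM) spread widely. Cish had 0 reads in both normal medium libraries and is drawn there as open triangles.

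Among the 8 interferon regulatory factors, 7 were kept, and Irf7 alone was past 2-fold in a 4T1-CM comparison. IRF7 is itself interferon-induced and is the main driver of interferon alpha genes. It was at 14.1, 20.8, 169 and 131 CPM, with log2 ratios of 3.58 (3.38 to 3.78) with DMSO and 2.66 (2.49 to 2.83) with CH223191, and of CH223191 over DMSO of 0.56 (0.31 to 0.81) without and -0.36 (-0.44 to -0.28) with 4T1-CM. Irf7 thus followed the order of libraries that 29 effector genes had. The others were level or lower: Irf5 was at 175, 198, 108 and 111 CPM, Irf3 at 31.4, 34.3, 21.5 and 22.5 CPM and Irf1 at 19.8, 22.0, 19.9 and 21.4 CPM. Of the 14 sensing adaptors, kinases and Toll-like receptors, 3 were at least 2-fold higher in 4T1-CM with DMSO and 2 with CH223191, against 12.2% and 12% of all genes. Tlr7, the endosomal sensor of single-stranded RNA, was at 22.6, 20.4, 65.5 and 60.9 CPM, with ratios of 1.53 (1.36 to 1.71) and 1.57 (1.39 to 1.76). Tlr9 had 7, 15, 32 and 15 reads and Traf3 was at 27.4, 25.4, 57.0 and 49.7 CPM.

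Of 10 negative regulators of cytokine signalling, 2 were at least 2-fold higher in 4T1-CM with DMSO and 3 with CH223191, against 12.2% and 12% of all genes. Socs3, a feedback inhibitor of STAT3-type receptors, had 20, 44, 1622 and 1385 reads, with log2 ratios of 6.17 (5.58 to 6.92) with DMSO and 4.93 (4.51 to 5.41) with CH223191. Cish, another of those counted under each compound, had 0, 0, 15 and 24 reads and was kept through the 4T1-CM libraries. Socs1, the main feedback inhibitor of interferon receptors, stayed at 37, 24, 29 and 26 reads. Irf2bp2 was lower with CH223191 in normal medium alone, at 142, 70.2, 139.8 and 156 CPM. Of the interferon-induced chemokines, Cxcl9 and Cxcl11 had 0 reads, Cxcl10 had 0, 0, 9 and 1 reads and Ccl5 had 3, 9, 111 and 106 reads. Ccl5 was therefore higher in 4T1-CM with either compound, and Cxcl10 stayed near the detection floor in 3 of the 4 libraries. For the target of CH223191, Ahr was at 1.88, 1.32, 8.57 and 10.3 CPM, and its target Cyp1b1 was at 4.08, 1.195, 20.6 and 10.5 CPM. The CH223191 over DMSO log2 ratio of Cyp1b1 was -1.75 (-2.59 to -1.01) without and -0.97 (-1.24 to -0.70) with 4T1-CM, so Cyp1b1 was lower with the inhibitor in both media. Other AHR targets did not share this pattern in full. Nqo1 was at -0.62 (-1.57 to 0.27) and -0.97 (-1.62 to -0.36), Tiparp at 0.14 (0.01 to 0.28) and -0.09 (-0.20 to 0.02), Ahrr at -0.36 (-1.72 to 0.93) and -0.01 (-0.90 to 0.86), and Cyp1a1 had 0 reads.

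The nearest other families of interferon-induced genes were compared with the effectors by the same counts. Of 17 interferon-induced GTPases (GBP and IRG families), which attack the vacuoles of intracellular pathogens, 13 were kept. Their median log2 ratio of 4T1-CM over normal medium was 1.40 with DMSO and 1.004 with CH223191, and that of CH223191 over DMSO was 0.00 without and -0.25 with 4T1-CM. In 4T1-CM 12 of the 13 were lower with CH223191, as were 41 of the 45 effectors, and in normal medium 6 of the 13 were higher, against 36 of the 45 effectors. For 12 genes of MHC class I presentation and the immunoproteasome, which respond more to interferon gamma, the 4T1-CM over normal medium medians were 0.10 with DMSO and -0.16 with CH223191. At least 2-fold higher in 4T1-CM was 1 gene with DMSO, B2m, and 1 other with CH223191, H2-K1. All genes stood at 12.2% and 12%. With CH223191, 2 genes, Psmb10 and Psme2, were at least 2-fold lower in 4T1-CM than in normal medium, against 7.86% of all genes. These differences between families were not tested.

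Last, members with and without the response element were set side by side, without a test. The 14 kept members with the element had a median log2 ratio of 4T1-CM over normal medium with DMSO of 1.62, and 10 of the 14 were at least 2-fold higher. The 19 kept members whose promoter held none had a median of 1.13, and 10 of 19 were at least 2-fold higher. Strong responders stand on both sides, with Ifit1 and Rsad2 holding the element and Ifit2 and Xaf1 not holding it in this window. Among kept genes that are not members, 17.3% of the 364 with the element were at least 2-fold higher in 4T1-CM with DMSO, against 10.3% of the 9440 without. The inhibitor ratio in 4T1-CM had a median of -0.37 in members with the element and -0.24 in those without.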

How the data were processed

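RNA was sequenced from peritoneal macrophages in 4 libraries, 1 per combination of medium and compound. The authors deposited 1 table of raw read counts per gene with gene lengths, in which no normalization was seen, for 54532 genes of mouse annotation; all its sample columns matched a library (0 unmatched). The submitters' processing notes name HISAT2 2.0.5 and DESeq2; the counting tool and its strand setting for these libraries are not given in the sources used here. The authors' comparisons were not used.

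Counts were scaled with TMM factors (edgeR 4.0.16 in R 4.3.3), and a gene was kept where any library had 10 reads or more. Log2 ratios used a prior count of 0.5, and their exact Clopper-Pearson 95% intervals came from scipy 1.17.1 (Python 3.11.15, numpy 2.4.6, pandas 2.3.3). The interval of a difference of log2 ratios was a normal approximation from the 4 counts. A call means a ratio of at least 2-fold. PCR duplicates are not independent molecules, so intervals and floors of 3 reads cover counting error only. With 1 library per condition single comparisons have no test; an additive edgeR quasi-likelihood fit over the 4 libraries, with 1 residual degree of freedom and Benjamini-Hochberg adjustment, served as an alternative, beside DESeq2 1.42.0 size factors and other filters. The procedure was tested on simulated data. Figures were drawn with matplotlib 3.10.9.

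Shared sequence between genes was measured as the share of 50-base words of a gene's transcripts that also occur in another gene. Promoters were taken from RefSeq on GRCm38.p6. The members and all gene lists were chosen with earlier results of these data known. By rule, full values went to members that had the largest or smallest ratio of 4T1-CM over normal medium with DMSO in their role group, or that were among the 5 lowest or above 0 for CH223191 over DMSO in 4T1-CM, which named 29; other members printed with intervals, such as Oas3, Ifit3, Isg15 and Ifi27l2a, were chosen after their values were seen. One gene of the signalling list is not reported here.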

Additional observations from a re-analysis of the deposited data

Results flagged for a closer look

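The log2 ratio of CH223191 over DMSO was above 0 in normal medium and below 0 in 4T1-CM for the members' median. For 15 of the 45 kept members (33.3%, against 2.83% of all genes) the counting interval lay wholly above 0 in normal medium and wholly below 0 in 4T1-CM. Of these, 9 were among the 29 members named by the rule and are listed here. That rule took some members for a low ratio in 4T1-CM, so the 9 are a listing and not a result. With 1 library per condition the difference between media was not tested. The members' median log2 ratio of CH223191 over DMSO was 0.242 in the first medium and -0.32 in the second, and the median of the members' differences was -0.589. Ifit1 differed by -2.976 on the log2 scale, from 2.165 to -0.808, and Rtp4 by -2.265, from 1.386 to -0.879. Ifit2 differed by -1.626 and Ifitm3 by -1.303. Cmpk2 differed by -1.017 and Bst2 by -0.776. Among those 9 members, the smallest differences were those of Oasl1 (-0.539), Rnf213 (-0.531) and Dtx3l (-0.487). Markers differed the same way, with all 7 macrophage markers below 0 (Cd68 by -0.774) and the B cell gene Ighm at 0.771 in normal medium and -0.822 in 4T1-CM, a difference of -1.592, and their part in these values was not tested.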

How the results depend on the processing

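No paired analysis was possible because each condition had 1 library, and for the same reason no replicate could be left out. Under other scalings (DESeq2 size factors, total counts), no filter or a stricter one, 5 as the prior count, protein-coding genes alone and libraries thinned to the smallest total, the members' median log2 ratio of 4T1-CM over normal medium stayed between 1.319 and 1.437 with DMSO and between 0.79 and 0.83 with CH223191. The median of CH223191 over DMSO stayed between 0.184 and 0.248 in normal medium and between -0.332 and -0.268 in 4T1-CM, and the difference of responses between -0.605 and -0.535. No log2 ratio of a member given with full values changed direction under these settings where its counting interval lay off 0. Some ratios with an interval spanning 0 did change. With total counts, the CH223191 over DMSO ratios of Tor3a, Phf11d and Parp14 in normal medium fell below 0.

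Counts past the fold limit depended on it, since few members lay far beyond 2-fold with CH223191. Requiring 10 reads in every library, which leaves out Ifit1, Ifit3b and Mx2, left 3 members of 6 higher with CH223191 in normal medium and 0 of 2 lower in 4T1-CM. The latter count was 1 with a prior count of 5 and 1 with protein-coding genes alone, where Mx2 is dropped. The shares of all genes under these settings are not given here, so these counts are a listing and not a result about the members. At 1.5-fold the counts were 10 higher in normal medium and 12 lower in 4T1-CM with CH223191, and 34 in place of 17 higher in 4T1-CM than in normal medium with CH223191, where all genes stood at 20.9%. In the additive edgeR quasi-likelihood fit, 37 members were higher and 1, Tor3a, lower in 4T1-CM at an adjusted p under 0.05, in place of 15 and 0 past 2-fold in both comparisons, among 4478 genes called for the medium. That fit called 0 members for the inhibitor (11 of all genes), 1 at an unadjusted p under 0.05 (879 of all genes), with 0.693 as the smallest adjusted p. Its residual is the difference of the inhibitor ratios between the media, so these p-values do not measure spread between cultures. Leaving out members with 20% or more of their words in another gene, an alternative chosen after seeing the data, kept each of these medians within the ranges above. Leaving out near copies by protein identity was not run, since protein sequences were not used here. Depth limits Ifit3b, Mx2, Mx1 and Isg20 most, with under 100 reads in every library.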
